A study of Mus musculus with 18 samples.

Results

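The 10 genes described here are Srebf1, Acly, Acaca, Fasn, Scd1, Scd2, Fads1, Fads2, Elovl5 and Elovl6, which encode enzymes of fatty acid synthesis, desaturation and elongation and 1 of the transcription factors that drive them. They were taken by symbol, as 10 of the 24059 gene symbols in the deposited count tables, and all 10 were present in both tables. RNA-seq was made from macrophages of C57BL/6J mice, grown from bone marrow for 7 days in medium conditioned by L929 cells, in 18 libraries and 6 groups of 3. In the second table all 4 groups received lipopolysaccharide (LPS, a bacterial cell wall component that activates macrophages). These groups were cholesterol loading followed by reconstituted high-density lipoprotein (rHDL), rHDL alone, loading alone, and neither. The rHDL was CSL111, a complex of APOA1 with soybean phosphatidylcholine, given on day 8 for 20 h and washed off before LPS, and loading used liposomes of POPC and cholesterol given before it. The first table sets 3 libraries with LPS against 3 untreated libraries. The labels name no engineered allele. The labels give neither the dose and duration of LPS nor the number of mice, nor whether replicates came from separate cultures. The p-values therefore measure only the spread between these libraries, which may be technical.

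Fatty acids are built in the cytosol, where ATP citrate lyase (Acly) supplies acetyl-CoA, acetyl-CoA carboxylase (Acaca) converts it to malonyl-CoA, and fatty acid synthase (Fasn) assembles palmitate. Elovl6 lengthens saturated chains, the stearoyl-CoA desaturases Scd1 and Scd2 make monounsaturated fatty acids, and Fads1, Fads2 and Elovl5 desaturate and lengthen polyunsaturated ones. Srebf1 encodes SREBP-1, a membrane-bound transcription factor of these genes. The gene is itself a target of the sterol-activated receptor LXR, which also acts on Fasn and Scd1, while cholesterol in the cell holds SREBP processing back.

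The promoter windows of 4 members are shown because Fasn and Fads2 had the largest rises with rHDL and Elovl5 and Srebf1 had none. Each is the 250 bases before an annotated start, 5′ to 3′ on the gene's strand, from RefSeq on GRCm38.p6, the same assembly as mm10. RefSeq windows were found for 7 of the 10 members, 9 windows in all, and Scd1, Scd2 and Fads1 are named only. Capitals mark matches, on either strand, to 3 of the 5 motifs searched: CCAAT (the NF-Y box), GGGCGG (the SP1 box) and CACGTG (an E-box). The Srebf1 window is the one next to the start of the counted row.
Fasn, chr11:120824548-120824797, minus strand: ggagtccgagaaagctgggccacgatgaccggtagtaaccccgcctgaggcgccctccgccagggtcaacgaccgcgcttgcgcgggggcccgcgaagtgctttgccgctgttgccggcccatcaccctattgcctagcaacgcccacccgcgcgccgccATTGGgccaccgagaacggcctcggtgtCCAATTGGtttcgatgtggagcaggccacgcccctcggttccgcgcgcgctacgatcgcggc
Fads2, chr19:10101504-10101753, minus strand: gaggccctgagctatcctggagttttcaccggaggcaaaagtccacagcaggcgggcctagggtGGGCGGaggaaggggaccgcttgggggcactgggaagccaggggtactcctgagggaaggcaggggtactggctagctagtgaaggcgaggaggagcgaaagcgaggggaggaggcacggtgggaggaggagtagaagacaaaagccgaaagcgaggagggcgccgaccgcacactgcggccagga
Elovl5, chr9:77917115-77917364, plus strand: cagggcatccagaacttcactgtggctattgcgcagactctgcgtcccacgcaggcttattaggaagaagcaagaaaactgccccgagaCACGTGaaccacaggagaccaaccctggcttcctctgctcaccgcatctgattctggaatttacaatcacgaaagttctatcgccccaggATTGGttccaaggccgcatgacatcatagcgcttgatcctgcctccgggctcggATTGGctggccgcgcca
Srebf1, chr11:60220628-60220877, minus strand: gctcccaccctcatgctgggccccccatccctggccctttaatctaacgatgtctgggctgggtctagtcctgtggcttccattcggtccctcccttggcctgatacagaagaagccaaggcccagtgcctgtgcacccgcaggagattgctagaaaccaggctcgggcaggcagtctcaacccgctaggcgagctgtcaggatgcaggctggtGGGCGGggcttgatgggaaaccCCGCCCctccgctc
CCAAT was found in 4 of the 9 member windows, against 33.85% of all 32851 windows of this length, and GGGCGG in 4 of 9, against 32.742%. Several of the 9 windows are of Srebf1, and by gene each of these motifs was found in 3 of the 7 members. CACGTG was found in 1 of 9, that of Elovl5, against 6.021%. The Fasn window holds 3 matches to CCAAT within 90 bases of the start, of which 2 overlap on opposite strands. TCACNCCAC, a sterol regulatory element, and the DR4 repeat bound by LXR, were found in 0 of 9, against 1.053% and 0.064% of all windows. No match says only that these letters are not in these windows.

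Libraries held 11450243 to 16835472 counts where LPS was set against untreated cells and 9464916 to 15607889 counts in the other 4 groups. Levels are CPM, a library's counts rescaled to a common total, after TMM scaling. Of 9 macrophage markers, 8 were measured in every group, and Itgam, listed at 0, has 3 exon bases that no other row shares. Their summed level was 12450 to 15080 CPM in cells given rHDL and LPS, 19460 to 23660 CPM after loading and rHDL, 21950 to 23730 CPM after loading, and 22180 to 24120 CPM with LPS alone. In the first table it was 31260 to 36770 CPM with LPS and 27100 to 32220 CPM in untreated cells. Lyz2 was the largest part of the sum, averaging 6449 CPM with rHDL and LPS and 13920 CPM with LPS alone. Emr1, Csf1r, Mertk, Fcgr1 and Msr1 were also lower on average with rHDL. Cd68 (486.1 against 340.3 CPM) and Cd14 (2009 against 1822 CPM) were higher with rHDL than with LPS alone. Summed markers of neutrophils, dendritic cells and lymphoid cells stayed under 10 CPM in every library and those of adipocytes at 0.1703 CPM or less, with Adipoq at or near 0 in all groups. Stromal and endothelial markers reached 13.63 CPM in 1 loaded library and 4.668 CPM or less in all other groups. S100a9, Clec9a, Plin1, Cfd, Pdgfrb and Pecam1 have 2.9% or less of their exon bases to themselves. The sums for neutrophils, dendritic cells, adipocytes and stromal or endothelial cells therefore rest on the other markers. In bulk RNA, fewer cells of a type and less RNA per cell cannot be told apart.

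Acly could not be measured. Its 2 rows (mm10 chr11:100476352-100528000) overlap each other, so that 30 of 4427 exon bases (0.7%) belong to 1 row alone, and all 6696 rows that share every base with other rows are at 0 in all libraries. Its counts summed to 2 over the 6 libraries of the first table and to 3 over the 12 of the second, with at most 1 per library. The other 9 members passed the filter on low counts in both tables. In the second table Fads2 did so only through its counts in cells given rHDL without loading. Srebf1 has 97.5% of its exon bases to itself, beside a neighbour, Rai1, and Scd2 has 98.9%, while the remaining 7 have 100%. Acaca is less certain than the rest, since 30.42% of the 50-base stretches of its annotated transcripts also occur in another gene, most of them in the pseudogene Gm5182. For Scd1 that share was 4.56% and for Scd2 3.97%, in part with each other, and for Elovl6 3.98%.

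Per kilobase of exon, Srebf1 (chr11:60199089-60220604) had the highest mean level of the 9 genes in each of the 5 groups that received LPS. It averaged 24.3 ± 2.01 CPM per kilobase after loading and rHDL, 27.1 ± 0.48 with rHDL, 26.4 ± 1.08 after loading and 28.5 ± 1.11 with LPS alone (SD, n = 3 libraries each). In the first table it averaged 32.2 ± 0.87 CPM per kilobase with LPS, where it overlapped with Elovl5 at 30.2 ± 1.67, and 30.3 ± 0.99 in untreated cells. In untreated cells Fads1 was highest, at 42.2 ± 1.53 CPM per kilobase, followed by Elovl5, Srebf1, Scd2, Fasn, Acaca, Fads2, Scd1 and Elovl6, and no neighbours in that order overlapped over their 3 libraries. Fasn held the second place with rHDL, at 18.5 ± 3.26 CPM per kilobase, where it overlapped with Elovl5 at 15.7 ± 1.78. Scd1 held the third place after loading, at 5.00 ± 0.37 CPM per kilobase, where it overlapped with Fasn, and was last or second to last in the other groups of the second table. Fads2 was last after loading, at 0.256 ± 0.107 CPM per kilobase, and after loading and rHDL, at 0.0785 ± 0.0315. Over all 6 groups, 33 of 48 pairs of neighbouring genes lay apart and 15 overlapped.

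**Figure D1:**
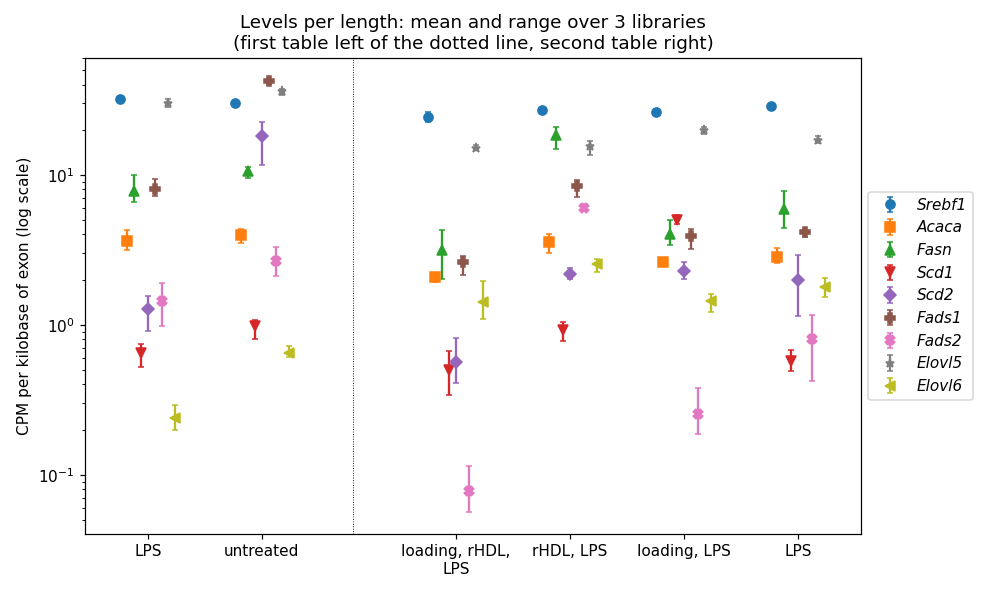
Level per length of the 9 measured genes in each group, in TMM-scaled CPM per kilobase of exon on a log axis, with symbols at the mean and bars from the lowest to the highest of 3 libraries. Srebf1 has the highest mean in the 5 groups that received LPS, overlapping with Elovl5 in the first table, Fads1 leads in untreated cells, and Fads2 runs from 0.0785 CPM per kilobase after loading and rHDL to 5.999 with rHDL.

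Among the 4 groups of the second table, the 9 genes were ordered in a few ways only. The highest mean was in rHDL-treated cells for 5 genes (Acaca, Fasn, Fads1, Fads2 and Elovl6), after loading for 3 (Scd1, Scd2 and Elovl5) and with LPS alone for 1 (Srebf1). The lowest mean was in cells loaded and then given rHDL for all 9. Libraries of that group overlapped with the next lowest group for Srebf1, Fasn, Scd1, Elovl5 and Elovl6. They lay apart from it for Acaca, Scd2, Fads1 and Fads2. The share of all genes with their lowest mean in that group was not counted. Of the 27 pairs of neighbouring groups in these orders, 12 lay apart over their libraries and 15 overlapped, and Fads2 was the only gene whose 4 groups all lay apart.

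**Figure D2:**
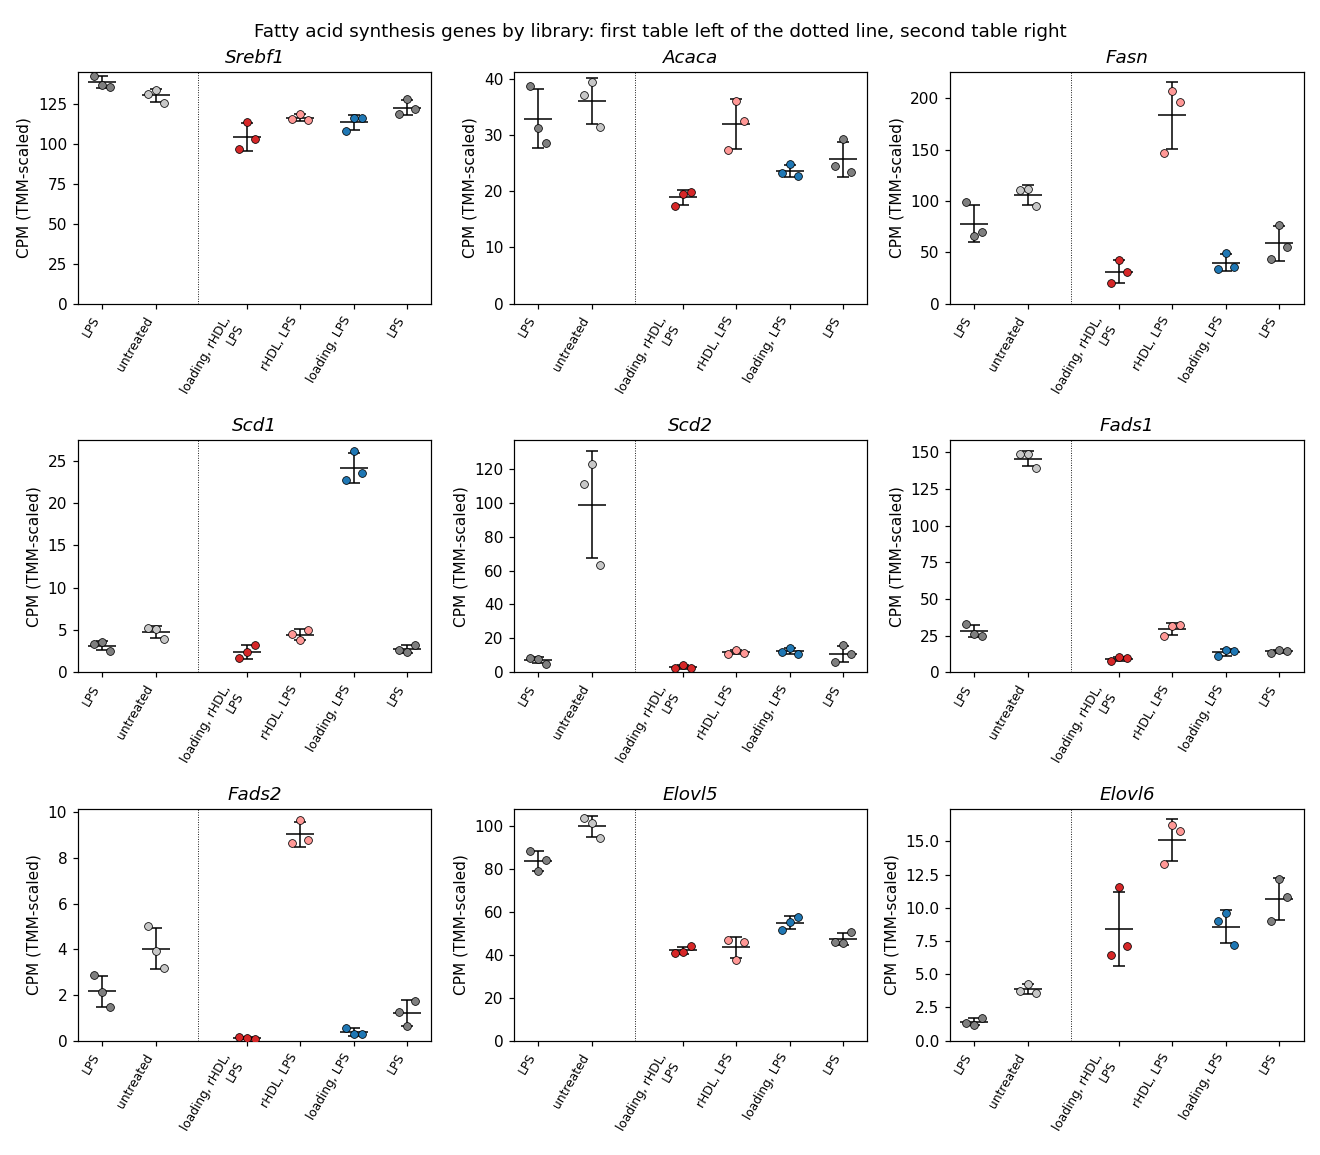
TMM-scaled CPM of the 9 measured genes in each library (points), with the group mean and SD (bars, n = 3 libraries); every axis starts at 0. Fads2 and Fasn stand highest with rHDL, Scd1 stands highest after loading, at 22.8 to 26.2 CPM, and Scd2 and Fads1 stand highest in untreated cells.

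LPS against untreated cells asks how the genes respond to LPS itself. Of the 9 measured members 0 rose, 7 fell and 2 did not pass the test (edgeR's quasi-likelihood test, Benjamini-Hochberg adjusted p under 0.05), where 72.9% of the 9576 genes tested were called, 35.3% higher and 37.6% lower. The median log2 fold change was -0.61 over the members and -0.05 over all genes tested. Groups did not overlap for 7 members, against 76.1% of all genes.

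All 4 desaturases fell, and Scd2 and Fads1 had the lowest fold changes of the 9 members. Scd2, a stearoyl-CoA desaturase (chr19:44293676-44306862), had 8.42, 7.63 and 4.94 CPM with LPS, against 111, 123 and 63.3 CPM in untreated cells. The groups lay far apart, with 1 untreated library well below the other two. The log2 fold change was -3.82 ± 0.26 (SE; adjusted p = 2.08e-07). Fads1, which inserts a double bond into polyunsaturated chains (chr19:10182888-10196872), had 32.7, 26.2 and 25.0 CPM with LPS, against 149, 149 and 139.7 CPM in untreated cells. Every LPS library lay below every untreated one, by -2.38 ± 0.10 (adjusted p = 4.46e-09). Fads2, the desaturase that starts the polyunsaturated pathway (chr19:10064164-10101503), had 2.86, 2.14 and 1.47 CPM with LPS, against 5.00, 3.91 and 3.20 CPM in untreated cells. It fell by 0.91 ± 0.26 on the log2 scale (adjusted p = 0.0083), with no overlap. Scd1, the other stearoyl-CoA desaturase (chr19:44394450-44407709), had 3.28, 3.57 and 2.51 CPM with LPS, against 5.19, 5.13 and 3.88 CPM in untreated cells. Its change of -0.61 ± 0.20 (adjusted p = 0.0165) did not pass without untreated library 1 (adjusted p = 0.0575), untreated library 2 (0.0581) or LPS library 3 (0.0671).

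Of the elongases, Elovl6 (chr3:129532386-129638493) had 1.35, 1.19 and 1.73 CPM with LPS, against 3.75, 4.29 and 3.60 CPM in untreated cells. The groups lay apart and the change was -1.45 ± 0.22 (adjusted p = 0.000107). The 2 LPS groups differed in level, although the tables were scaled apart and not compared by test. Elovl6 averaged 10.7 CPM in the LPS group of the second table, against 1.42 CPM here and 3.88 CPM in untreated cells. For Fads1 the second LPS group was the lower, at 14.3 against 27.9 CPM. Elovl5 (chr9:77917365-77984519) had 88.4, 79.1 and 84.1 CPM with LPS, against 104, 102 and 94.5 CPM in untreated cells. This smaller change, -0.25 ± 0.08 (adjusted p = 0.011), did not pass without untreated library 1 (adjusted p = 0.0574). Fasn (chr11:120805958-120824547) had 98.7, 65.6 and 69.5 CPM with LPS, against 111, 112 and 95.1 CPM in untreated cells. 1 LPS library lay within the untreated range. The change of -0.44 ± 0.14 (adjusted p = 0.014) did not pass without LPS library 3 (adjusted p = 0.0823).

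The 2 members that did not pass were Acaca and Srebf1. Acaca (chr11:84195438-84401651) had 38.8, 31.3 and 28.7 CPM with LPS, against 37.1, 39.5 and 31.5 CPM in untreated cells. The groups overlapped, and the change was -0.13 ± 0.12 (95% interval -0.41 to 0.14, adjusted p = 0.352); without LPS library 1 it passed, at -0.26 (adjusted p = 0.0393). Srebf1 had 143, 137 and 136 CPM with LPS, against 131, 134 and 126 CPM in untreated cells, a change of 0.09 ± 0.07 (95% interval -0.06 to 0.24, adjusted p = 0.271). Its direction depended on the scaling: by library totals alone the median over all genes was -0.77 and Srebf1 was at -0.63 (adjusted p = 8.82e-06), with Acaca at -0.85 (adjusted p = 9.33e-05). Srebf1 lay above the median of all genes under both scalings.

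rHDL against none under LPS asks what rHDL pretreatment does in cells that were not loaded. Of the 9 measured members 6 rose, 0 fell and 3 did not pass, where 36.5% of the 8965 genes tested were called, 18.1% higher and 18.4% lower. The median log2 fold change was 0.50 over the members and 0.03 over all genes. Groups did not overlap for 5 members, against 51.4% of all genes. Of the 8 measured macrophage markers, 6 were called lower and 1 higher in the same comparison, and their part in the result was not tested.

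Fads2 rose most. Fads2 had 8.66, 9.68 and 8.81 CPM with rHDL, against 1.28, 0.636 and 1.74 CPM with LPS alone. The lowest rHDL library lay well above the highest LPS library, and the log2 fold change was 2.92 ± 0.24 (adjusted p = 5.1e-07). The counts behind it were 393 with rHDL and 35 with LPS alone, which is 7.64-fold (5.4 to 11.13-fold at 95%, for counting error only). Fasn had 147, 207 and 197 CPM with rHDL, against 43.6, 76.9 and 55.6 CPM with LPS alone. Again no libraries overlapped, and the change was 1.64 ± 0.24 (adjusted p = 8.05e-05). Fads1 had 24.5, 31.2 and 32.1 CPM with rHDL, against 13.3, 14.9 and 14.6 CPM with LPS alone, a change of 1.03 ± 0.14 (adjusted p = 5.17e-05). These 3 genes stayed called whichever library was left out.

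The other 3 rises were small and close to the threshold. Scd1 had 4.55, 3.76 and 5.04 CPM with rHDL, against 2.66, 2.36 and 3.27 CPM with LPS alone, a change of 0.69 ± 0.21 (adjusted p = 0.0196). Elovl6 had 13.3, 16.2 and 15.8 CPM with rHDL, against 9.05, 12.2 and 10.8 CPM with LPS alone, a change of 0.50 ± 0.18 (adjusted p = 0.0467). For both genes every rHDL library lay above every LPS library. Acaca had 27.3, 36.1 and 32.5 CPM with rHDL, against 24.5, 29.2 and 23.4 CPM with LPS alone, an overlap of groups with a change of 0.31 ± 0.11 (adjusted p = 0.0435). Acaca did not pass without LPS library 1, LPS library 3, rHDL library 2 or rHDL library 3 (adjusted p = 0.136, 0.164, 0.206 and 0.103), nor did Elovl6 without the same libraries (0.177, 0.101, 0.133 and 0.113). Scd1 did not pass without LPS library 1 (adjusted p = 0.0617), LPS library 2 (0.0827) or rHDL library 3 (0.0697). Acaca also did not pass with DESeq2 (adjusted p = 0.0575) or with only the compared groups in the fit (0.0698), and Elovl6 did not with DESeq2's size factors in edgeR (0.0505).

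Srebf1, Elovl5 and Scd2 did not pass. Srebf1 had 115, 119 and 115 CPM with rHDL, against 118, 128 and 122 CPM with LPS alone, a change of -0.08 ± 0.07 (95% interval -0.22 to 0.07, adjusted p = 0.407). By library totals this change was 0.04. Elovl5 had 46.9, 37.9 and 45.8 CPM with rHDL, against 46.1, 45.6 and 50.6 CPM with LPS alone, a change of -0.12 ± 0.09 (95% interval -0.31 to 0.06, adjusted p = 0.295). Scd2 had 10.9, 13.0 and 11.5 CPM with rHDL, against 6.28, 15.8 and 10.7 CPM with LPS alone. The LPS libraries spread on both sides of the rHDL libraries, and the 95% interval of the change ran from -0.44 to 0.63 (adjusted p = 0.791). The intervals of Srebf1, Elovl5 and Scd2 exclude a change as large as that of Fads1.

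**Figure D3:**
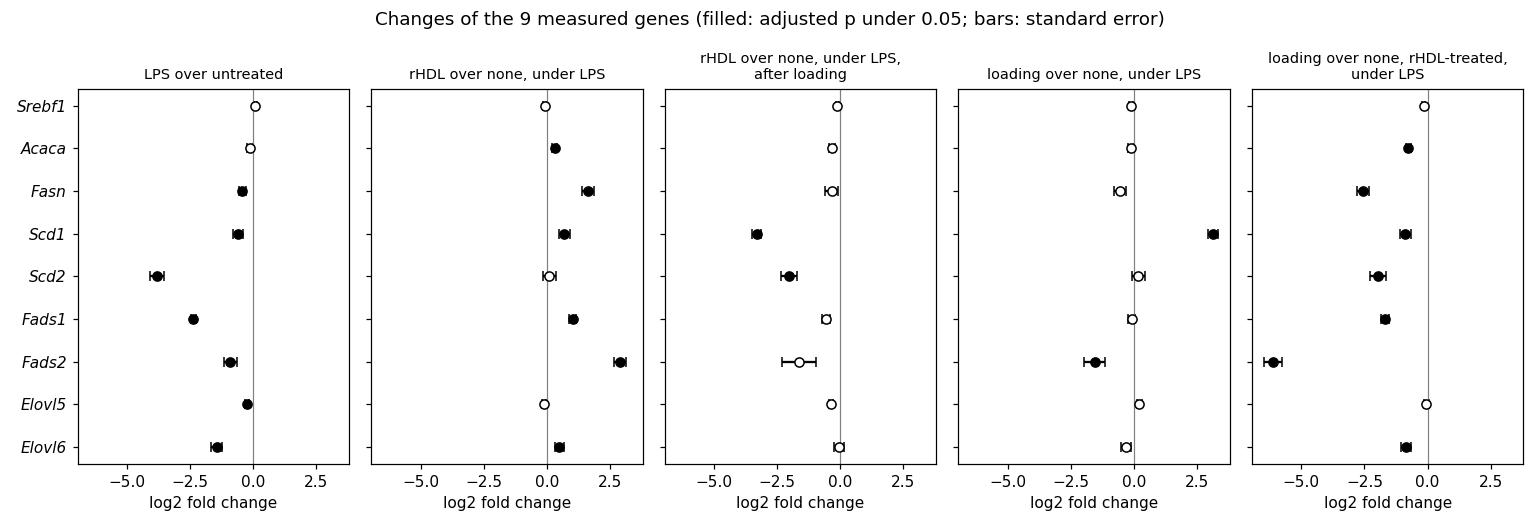
Log2 fold changes of the 9 measured genes in 5 comparisons, with bars of 1 standard error; filled symbols passed the test. Filled symbols lie left of 0 with LPS and with loading in rHDL-treated cells, and right of 0 with rHDL without loading, while after loading rHDL has filled symbols for Scd1 (-3.32) and Scd2 (-2.04) only.

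rHDL against none after loading asks the same of cells that held extra cholesterol. Of the 9 measured members 0 rose, 2 fell and 7 did not pass, where 1.02% of the 8965 genes tested were called, 0.424% higher and 0.591% lower. The median log2 fold change was -0.38 over the members and 0.00 over all genes. Groups did not overlap for 6 members, against 15.3% of all genes. None of the 8 measured macrophage markers was called.

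Both genes that fell are stearoyl-CoA desaturases. Scd1 had 1.64, 2.33 and 3.24 CPM after loading and rHDL, against 22.8, 26.2 and 23.6 CPM after loading alone. The change was -3.32 ± 0.18 (adjusted p = 2.61e-07). Its libraries after loading and rHDL overlapped with those of LPS alone, which ran from 2.36 to 3.27 CPM. Scd2 had 2.51, 4.47 and 2.21 CPM after loading and rHDL, against 12.1, 14.4 and 10.9 CPM after loading alone. The change was -2.04 ± 0.30 (adjusted p = 0.00429). Both genes stayed called whichever library was left out.

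Of the 7 members that did not pass, 4 had groups that lay apart, all lower with rHDL. Fads1 had 7.43, 10.0 and 9.79 CPM after loading and rHDL, against 11.01, 14.99 and 14.4 CPM after loading alone, a difference of -0.56 ± 0.16 (adjusted p = 0.129). Elovl5 had 41.0, 41.3 and 44.2 CPM after loading and rHDL, against 51.8, 55.3 and 57.8 CPM after loading alone, a difference of -0.38 ± 0.09 (adjusted p = 0.0555). Elovl5 passed with DESeq2 (adjusted p = 0.024), by library totals (0.0312) and without the low-count filter (0.0254), and Fads1 passed without that filter (0.0285). For Acaca, with 17.4, 19.5 and 19.9 CPM after loading and rHDL against 23.3, 24.9 and 22.8 CPM after loading alone, the difference was -0.32 ± 0.12 (adjusted p = 0.269). The other such gene, Fads2, rested on few counts and was tested only because of its counts in cells given rHDL without loading. It had 4 counts in the 3 libraries given loading and rHDL, against 13 in the 3 loaded libraries, or 0.30 times the level (0.0713 to 0.972 at 95% from counting error), and a difference of -1.65 ± 0.67 (adjusted p = 0.335). Fasn had 20.1, 42.8 and 31.0 CPM after loading and rHDL, against 34.0, 49.7 and 36.1 CPM after loading alone, with an overlap (-0.35 ± 0.25, adjusted p = 0.643). The remaining pair also overlapped, with Elovl6 at 6.48, 11.6 and 7.15 CPM after loading and rHDL against 8.98, 9.59 and 7.19 CPM after loading alone, and Srebf1 at 96.5, 114 and 103 CPM after loading and rHDL against 108, 116 and 116 CPM after loading alone. Their differences were -0.04 ± 0.20 (adjusted p = 0.958) and -0.12 ± 0.07 (adjusted p = 0.532).

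The difference between the 2 rHDL effects was tested as an interaction, the effect after loading minus that without loading. It was negative and passed the test for 6 of the 9 measured members and positive for 0, where 30.2% of the 8965 genes tested passed, 14.2% with a negative difference and 16.0% with a positive one. The median difference was -1.59 log2 units over the members and -0.03 over all genes. Fads2 had the largest, at -4.56 ± 0.72 (adjusted p = 0.000334), between effects of -1.65 after loading and 2.92 without it. It is counted among the 6 although it was tested only because of its counts with rHDL without loading. For Scd1 the difference was -4.01 ± 0.28 (adjusted p = 4.74e-07), between effects of -3.32 and 0.69. Scd2 followed at -2.13 ± 0.40 (adjusted p = 0.00104), although its effect without loading, 0.10, was not distinguishable from 0. The difference was -1.99 ± 0.34 for Fasn (adjusted p = 0.00065) and -1.59 ± 0.21 for Fads1 (adjusted p = 8.19e-05). It was smallest among those that passed for Acaca, at -0.63 ± 0.16 (adjusted p = 0.00947). All 6 passed whichever library was left out. Elovl6 (-0.54 ± 0.27, 95% interval -1.12 to 0.05, adjusted p = 0.159), Elovl5 (-0.26 ± 0.12, 95% interval -0.52 to 0.00, adjusted p = 0.131) and Srebf1 (-0.04 ± 0.10, 95% interval -0.25 to 0.16, adjusted p = 0.77) did not pass. Elovl6 passed without the library of loading and rHDL numbered 2, at -0.82 (adjusted p = 0.0118), and Elovl5 passed without rHDL library 2, at -0.34 (adjusted p = 0.0364). Of the 8 measured macrophage markers, 6 had a positive difference past the threshold and 1 a negative one, and their part in the result was not tested.

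**Figure D4:**
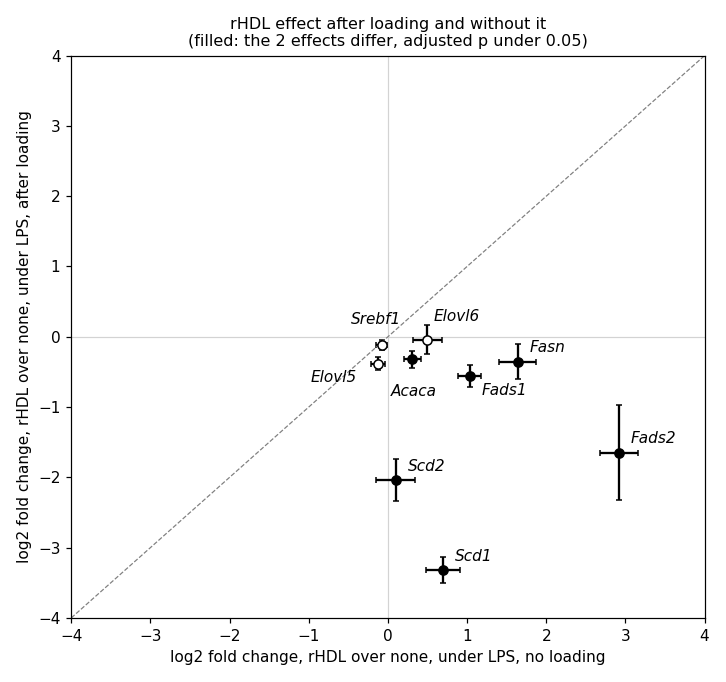
Log2 fold change with rHDL after loading (vertical axis) against that without loading (horizontal axis) for the 9 measured genes, under LPS, with bars of 1 standard error and a dashed line of equal effects. Filled symbols are the 6 genes whose effects differ by test; Fads2, at 2.92 without loading and -1.65 after it, lies farthest from the line.

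Loading against none under LPS uses the same LPS libraries as the rHDL comparison above, so the values of both are given side by side and the 2 effects were not compared. Of the 9 measured members 1 rose, 1 fell (Fads2, which was tested only because of its counts in rHDL-treated cells) and 7 did not pass, where 8.57% of the 8965 genes tested were called, 3.99% higher and 4.57% lower. The median log2 fold change was -0.11 over the members and 0.01 over all genes. Groups did not overlap for 4 members, against 32.9% of all genes. Scd1 rose by 3.13 ± 0.18 with loading (adjusted p = 7.49e-08), beside 0.69 with rHDL, with 22.8, 26.2 and 23.6 CPM after loading, against 2.66, 2.36 and 3.27 CPM with LPS alone. It was called whichever library was left out. Fads2 fell by 1.56 ± 0.42 (adjusted p = 0.0338), with 0.571, 0.306 and 0.280 CPM after loading, against 1.28, 0.636 and 1.74 CPM with LPS alone. The counts were 13 after loading and 35 with LPS alone, or 0.335 times the level (0.163 to 0.65 at 95% from counting error). With only the compared groups in the fit Fads2 did not pass the low-count filter and was not tested. The call was also lost without LPS library 1 (adjusted p = 0.104), LPS library 3 (0.15), loaded library 2 (0.109) or loaded library 3 (0.132). Scd2, the paralog of Scd1, changed by 0.17 ± 0.25 with loading (95% interval -0.38 to 0.72, adjusted p = 0.743); its value with rHDL was 0.10 ± 0.25. Fasn was at -0.57 ± 0.25 with loading (adjusted p = 0.18), and passed without the low-count filter (adjusted p = 0.0113); its value with rHDL was 1.64. The other 5 lay between -0.32 for Elovl6 and 0.21 for Elovl5, none past the test.

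Loading against none in rHDL-treated cells compares the 2 groups that received rHDL. Of the 9 measured members 0 rose, 7 fell and 2 did not pass, where 35.6% of the 8965 genes tested were called, 18.5% higher and 17.1% lower. The median log2 fold change was -0.88 over the members and -0.01 over all genes. Groups did not overlap for 8 members, against 43.1% of all genes. For Fads2, 4 counts after loading and rHDL stood against 393 with rHDL, a level 75.9-fold lower with a 95% counting interval of 29.4 to 280.0-fold. The fitted log2 fold change was -6.12 ± 0.35 (adjusted p = 1.66e-08). Fads2, counted among the 7, was tested only because of its counts with rHDL, the group where it was high. Fasn had 20.1 to 42.8 CPM after loading and rHDL, against 147 to 207 CPM with rHDL (-2.56 ± 0.25, adjusted p = 2.12e-06). Scd2 had 2.21 to 4.47 CPM after loading and rHDL, against 10.9 to 13.0 CPM with rHDL (-1.96 ± 0.30, adjusted p = 0.000137). Fads1 fell by 1.69 ± 0.15 (adjusted p = 7.88e-07) and Scd1 by 0.88 ± 0.21 (adjusted p = 0.00482). Elovl6 fell by 0.86 ± 0.19 (adjusted p = 0.00233) and Acaca by 0.76 ± 0.11 (adjusted p = 0.000131), so that the fall reached every enzyme measured except Elovl5. All 7 passed whichever library was left out. Elovl5 was at -0.05 ± 0.09 (95% interval -0.23 to 0.14, adjusted p = 0.719). Srebf1 was at -0.16 ± 0.07 (adjusted p = 0.0882), with all 3 loaded libraries below all 3 unloaded ones. With the replicate number as a block, a pairing that no label gives, Srebf1 passed (-0.16, adjusted p = 0.0257). It also passed by library totals (-0.25, adjusted p = 0.0395) and without the library of loading and rHDL numbered 2 (-0.22, adjusted p = 0.027). In this comparison 6 of the 8 measured macrophage markers were called higher and 2 lower, and their part in the result was not tested.

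The rest of the fatty acid pathway was followed through a list of 26 genes, of which 12 were tested. Among those not tested, Me1, Mid1ip1, Elovl1, Tecr and Ptpla have 14.9% or less of their exon bases to themselves. With LPS 3 rose, 8 fell and 1 did not pass, where 35.3% of all genes tested rose and 37.6% fell. Hsd17b12, the ketoreductase of the elongation cycle, averaged 306 CPM with LPS, against 169 CPM in untreated cells (0.86 ± 0.07, adjusted p = 5.39e-07). Ptplb, a dehydratase of that cycle now called Hacd2, rose by 0.71 ± 0.08 (adjusted p = 1.45e-05). The related Ptplad2 fell by 0.79 ± 0.08 (adjusted p = 7.6e-06) and Fads3, a member of the Fads family, fell by 1.88 ± 0.28 (adjusted p = 9.57e-05). With rHDL 6 rose, 4 fell and 2 did not pass, where 18.1% of all genes tested rose and 18.4% fell. Pgd, an enzyme of the pentose phosphate pathway that supplies NADPH, averaged 704 CPM with rHDL, against 463 CPM with LPS alone (0.61 ± 0.05, adjusted p = 1.25e-06). Slc25a1, which exports citrate from mitochondria, rose by 0.48 ± 0.08 (adjusted p = 0.000207) and Hsd17b12 by 0.26 ± 0.06 (adjusted p = 0.00256), while Ptplad2 fell by 0.81 ± 0.12 (adjusted p = 9.92e-05). The list therefore held changes in both directions, with medians of -0.33 for LPS and 0.26 for rHDL.

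After loading, 0 of the 12 list genes were called with rHDL, where 1.02% of all genes tested were. With loading itself 0 were called, where 8.57% of all genes were. The smallest p for rHDL belonged to Fads3 (-0.70 ± 0.44, adjusted p = 0.573), Slc25a1 (-0.12 ± 0.08), Mcat, which loads malonyl groups in mitochondria (-0.18 ± 0.14), and the elongase Elovl2 (0.36 ± 0.32). For loading it belonged to Ptplad1 (0.24 ± 0.08, adjusted p = 0.083), G6pdx (0.13 ± 0.06), Elovl2 (-0.61 ± 0.32) and Slc25a1 (-0.14 ± 0.08). The difference between rHDL effects was past the threshold and negative for 4 genes and positive for 2, against 14.2% and 16.0% of all genes. Pgd stood at -0.56 ± 0.08 (adjusted p = 0.000114) and Slc25a1 at -0.61 ± 0.11 (adjusted p = 0.000948), against 0.85 ± 0.16 for Ptplad2 (adjusted p = 0.00128) and 1.81 ± 0.47 for Elovl2 (adjusted p = 0.00906). With loading in rHDL-treated cells 4 rose, 6 fell and 2 did not pass, where 18.5% of all genes rose and 17.1% fell. Slc25a1 averaged 47.3 CPM after loading and rHDL, against 79.4 CPM with rHDL (-0.75 ± 0.08, adjusted p = 3.98e-06). Pgd fell by 0.55 ± 0.05 (adjusted p = 2.65e-06) and Hsd17b12 by 0.35 ± 0.06 (adjusted p = 0.000229), and Ptplad2 rose by 0.95 ± 0.12 (adjusted p = 1.91e-05).

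Of 12 regulators of SREBP and LXR, 6 were tested for LPS and 3 elsewhere. Row overlap limits this list as it does Acly. The LXR genes Nr1h2 and Nr1h3 have 0.2% and 15.5% of their exon bases to themselves. Rxra has 8.4%, Rxrb 0.0%, Insig2 8.7%, Mbtps1 3.4% and Mlx 8.2%, while Mlxipl, also not tested, has 100%. Apart from Mlxipl, a gene left untested here cannot be read as not expressed. With LPS 2 rose and 0 fell, where 35.3% of all genes tested rose and 37.6% fell. Insig1, which retains SREBP in the endoplasmic reticulum, averaged 184 CPM with LPS, against 90.1 CPM in untreated cells (1.03 ± 0.09, adjusted p = 1.34e-06), and Srebf2, the gene of SREBP-2, averaged 470.1 CPM with LPS, against 220.3 CPM in untreated cells (1.09 ± 0.10, adjusted p = 1.6e-06). Scap, which has 4.9% of its exon bases to itself, was at 0.42 ± 0.32 (adjusted p = 0.255), and Mbtps2, a protease that releases SREBP, at 0.04 ± 0.08 (adjusted p = 0.641). With rHDL Insig1 rose by 1.25 ± 0.07 (adjusted p = 1.12e-08), at 320.1 CPM against 135 CPM with LPS alone, and Srebf2 by 0.30 ± 0.09 (adjusted p = 0.0133). With loading both fell: Insig1 to 48.4 CPM and Srebf2 to 138 CPM after loading, against 135 and 361 CPM with LPS alone, with log2 fold changes of -1.48 ± 0.07 (adjusted p = 8.74e-09) and -1.39 ± 0.09 (adjusted p = 1.85e-07). With loading in rHDL-treated cells Insig1 stood at -2.84 ± 0.07 (adjusted p = 3.46e-12) and Srebf2 at -1.503 ± 0.09 (adjusted p = 1.87e-08). After loading, rHDL changed neither past the test (Insig1 -0.11 ± 0.07, adjusted p = 0.596; Srebf2 0.18 ± 0.09, adjusted p = 0.449). The difference between rHDL effects passed for Insig1 (-1.36 ± 0.10, adjusted p = 6.17e-07) and not for Srebf2 (-0.12 ± 0.12, adjusted p = 0.518). Mbtps2 did not pass in any comparison of the second table.

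Genes that use fatty acids were followed through lists of acyl-CoA synthetases and of fatty acid oxidation. Of 5 acyl-CoA synthetases, which activate fatty acids, 3 were tested, and all 3 rose with LPS, where 35.3% of all genes rose. The other synthetases, Acsl3 and Acsl6, have 0.0% and 13.1% of their exon bases to themselves. Acsl1 averaged 749 CPM with LPS, against 65.1 CPM in untreated cells (3.52 ± 0.09, adjusted p = 1.39e-10), Acsl5 rose by 1.40 ± 0.07 (adjusted p = 1.83e-08), and Acsl4, with 5.5% of its exon bases to itself, by 0.87 ± 0.32 (adjusted p = 0.0313). With rHDL Acsl1 fell by 0.52 ± 0.10 (adjusted p = 0.000747) and Acsl5 by 0.29 ± 0.06 (adjusted p = 0.00176), and the difference between rHDL effects was positive for both (0.87 ± 0.14, adjusted p = 0.000368, and 0.26 ± 0.09, adjusted p = 0.0331). With loading in rHDL-treated cells both rose, by 0.70 ± 0.10 (adjusted p = 6.99e-05) and 0.35 ± 0.06 (adjusted p = 0.000363). None of the 3 was called with rHDL after loading or with loading alone, where 1.02% and 8.57% of all genes were called. Of 17 genes of fatty acid oxidation 14 were tested, while Hadhb, Etfb and Ppara have 5.4% or less of their exon bases to themselves. With LPS 3 rose and 9 fell, where 35.3% of all genes rose and 37.6% fell. Among those that fell were Cpt1a, which admits fatty acids to mitochondria (-0.82 ± 0.08, adjusted p = 4.43e-06), Etfdh (-0.76 ± 0.09) and Acadm (-0.89 ± 0.11). Acadl rose by 0.85 ± 0.07. With rHDL 5 rose and 1 fell, against 18.1% and 18.4% of all genes. Ppard, a nuclear receptor that binds fatty acids, stood at 47.4 CPM with rHDL against 23.8 CPM with LPS alone (0.98 ± 0.19, adjusted p = 0.000926). Acadvl rose by 0.35 ± 0.06, Eci1 by 0.44 ± 0.12 and Slc25a20 by 0.35 ± 0.09. After loading rHDL called 0 of the 14, where 1.02% of all genes were called. Loading alone called 1, Acadvl (0.27 ± 0.06, adjusted p = 0.0173), where 8.57% of all genes were called. The difference between rHDL effects was past the threshold for 6, all negative, against 14.2% of all genes with a negative one. It was led by Acadvl (-0.44 ± 0.09, adjusted p = 0.00205) and Etfdh (-0.57 ± 0.13, adjusted p = 0.00553). With loading in rHDL-treated cells 3 fell, Ppard (-0.98 ± 0.19, adjusted p = 0.000864), Etfdh and Eci1, and 0 rose, against 17.1% and 18.5% of all genes.

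For each measured member, up to 3 genes outside the set with the most similar levels are given over the 12 libraries of the second table, among 6063 candidates, by Pearson's r of log2 CPM. This is a description of 12 libraries that fall into 4 groups, so r follows mainly the group means. Fasn was closest to Tpcn2 (r = 0.993), Lrp12 (0.988) and Cyb5b (0.986), and Lrp12 averaged 58.9 CPM after loading and rHDL, 199 CPM with rHDL, 65.3 CPM after loading and 85.3 CPM with LPS alone. Fads1 was closest to Sgpl1 (r = 0.994), Ip6k1 (0.986) and Atp8b4 (0.981), and Fads2 to Tkt (0.968), Ifrd1 (0.964) and Gla (0.961). Scd1 was closest to Cnpy3 (r = 0.955), which averaged 24.6 CPM after loading and rHDL, 26.1 CPM with rHDL, 34.7 CPM after loading and 26.8 CPM with LPS alone, followed by Hmgb1 (0.914) and Spcs2 (0.913). Scd2 was closest to Adss (r = 0.949), Hmox1 (0.943) and Slc25a51 (0.919). Acaca was closest to Zdhhc9 (r = 0.954), Eri1 (0.949) and L1cam (0.948), and Elovl6 to Rad23b (0.966), P2ry2 (0.961) and Irgq (0.951). The likeness was weakest for Srebf1, closest to Arrdc4 (r = 0.918), Nsf (0.917) and Ibtk (0.915), and for Elovl5, closest to Cnpy3 (0.868) and Usp46 (0.838).

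The authors' deposited table for rHDL without loading lists 1609 genes, of which 5 are members. In the authors' deposited table Fasn is at 1.63, Scd1 at 0.68, Fads1 at 1.02, Fads2 at 2.91 and Elovl6 at 0.48 on the log2 scale. The smallest ratio of RPKM among these 5 is 1.53, for Elovl6, while Acaca, which is not listed, stood at 1.24-fold in the fit here. The rule for listing a gene may differ from the threshold used here. The authors' deposited table for rHDL after loading lists 47 genes, with 2 members, Scd1 at -3.32 and Scd2 at -2.03.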

How the data were processed

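RNA from mouse bone marrow-derived macrophages was selected with poly-dT and sequenced, per the labels' protocols, in 18 libraries of 6 groups. Reads were processed by the authors with cutadapt, HISAT2 on mm10, Subread featureCounts and DESeq2, per the submitters' processing notes, whose versions are not given. The deposited count tables hold raw counts per gene row. The authors' deposited comparison tables hold log2 fold changes, adjusted p-values and a ratio of RPKM values, per the file headers. No column was left without a sample (0 columns).

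Rows were summed per symbol. The 2 tables were fitted apart, the second with all 12 libraries in 1 fit, by edgeR 4.0.16 in R 4.3.3 (TMM scaling, filterByExpr with a minimum count of 10, quasi-likelihood F test, Benjamini-Hochberg adjustment over all genes tested, threshold 0.05). The standard error is the fold change divided by the square root of F, and 95% intervals use the t quantile of the fit. Levels between tables were not compared by test. Replicates of every group differed beyond sampling noise, so none was merged. The members and lists were chosen with earlier results of these data known. All measured members are described, and list genes were named as the 4 with the smallest p in a comparison, or fewer. Alternatives were other scalings, no low-count filter, DESeq2 1.42.0, a replicate block, the top row per symbol, the compared groups alone and leaving out each library. Same-numbered libraries deviated together in every pair only for loading in rHDL-treated cells (r = 0.436, 0.283 and 0.177), from the numbers in the sample names. Scripts were tested on simulated data. Counting intervals cover counting error only. For Elovl5, 1 gene of similar level is not reported here.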

Additional observations from a re-analysis of the deposited data

Results flagged for a closer look

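For 6 members the effect of rHDL after loading differed from that without loading by a test of the difference itself (edgeR's interaction term). In log2 units, the effect after loading minus that without loading was -4.56 for Fads2, -4.01 for Scd1, -2.13 for Scd2, -1.99 for Fasn, -1.59 for Fads1 and -0.63 for Acaca. The Fads2 value rests on 4 and 13 counts in the loaded groups, and Fads2 was tested only because of its counts with rHDL without loading.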

How the results depend on the processing

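Of the members' values under alternatives, 685 kept their direction and side of the threshold, 18 passed newly, 23 no longer passed and 10 changed sign. The 6 differences between rHDL effects passed under every alternative run. Scaling by library totals gave 1532 genes higher and 6640 lower with LPS, 2507 higher with rHDL, 25 higher with rHDL after loading, 2124 with a negative difference between rHDL effects, and 626 higher and 254 lower with loading. By that scaling Srebf1 was at -0.63 with LPS and 0.038 with rHDL, where the median over all genes was -0.77 and 0.14; it was -0.20 for the difference and -0.10 for loading in rHDL-treated cells. It moved the share of higher calls to 18.7% against 48.4% by TMM for LPS, 66.3% against 49.5% for rHDL, 27.2% against 41.8% for rHDL after loading, 32.4% against 53.0% for the difference, 71.1% against 46.6% for loading and 39.4% against 51.9% for loading in rHDL-treated cells. Without the low-count filter, rHDL after loading called 90 genes higher and 86 lower, with 4 members lower, and loading 2 members lower. DESeq2 called 89 genes higher with rHDL after loading. With only the compared groups in the fit, rHDL after loading called 19 higher and 23 lower, and loading 691 lower with 0 members lower, since Fads2 was not tested there. Per base shared with no other row, Srebf1 stood at 27.8 CPM per kilobase with rHDL. The causes were not tested.

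With the replicate number as a block, rHDL after loading called 277 genes higher and 209 lower, with 5 members lower, adding Elovl5 (adjusted p = 0.00506), Fads1 (0.00347) and Fasn (0.0465). Loading called 717 higher and 934 lower, with 2 members lower, adding Fasn (adjusted p = 0.00122), and the difference added Elovl6 (0.0366). No label pairs the samples, which share only a number in every comparison. In the pairing check for rHDL after loading r was 0.184, 0.284 and -0.00454, and for loading 0.177, 0.254 and 0.047. For loading in rHDL-treated cells, where same-numbered libraries deviated together in every pair, the block added Srebf1 and changed no other member's call.

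Leaving out 1 library at a time, rHDL called 3 to 6 members higher, with 3 without LPS library 1 or rHDL library 3. Loading called 158 to 245 genes higher, 189 to 349 lower and 0 to 1 members lower, and rHDL after loading 10 to 68 higher and 20 to 55 lower. Fold changes that changed sign, none past the test, ran from -0.17 to 0.48 for Scd2 with rHDL, -0.11 to 0.55 for Scd2 and -0.18 to 0.038 for Fads1 with loading, -0.33 to 0.12 for Elovl6 with rHDL after loading, -0.13 to 0.026 for Elovl5 with loading in rHDL-treated cells, and -0.10 to 0.012 for the difference between rHDL effects of Srebf1. Depth limits Fads2 after loading, and row overlap limits Acly.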
